A study of Mus musculus with 34 samples.

Results

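Sphingosine-1-phosphate (S1P) receptors and the enzymes and transporter that set S1P levels were described across cultures of MOSJ-Dkk-1 cells. The group was chosen by name and comprised 8 genes, the receptors S1pr1, S1pr2 and S1pr3, the kinases Sphk1 and Sphk2, the lyase Sgpl1, the phosphatase Sgpp1 and the transporter Spns2. Of these, 7 had a row among the 16576 genes of the culture table. S1pr3 had no row in the table used here and was not analysed. In the GENCODE annotation of GRCm38 the receptors lie at chr3:115710433-115715072 (S1pr1) and chr9:20962361-20976781 (S1pr2), the kinases at chr11:116530925-116536674 (Sphk1) and chr7:45709467-45718002 (Sphk2), Sgpl1 at chr10:61098642-61147703, Sgpp1 at chr12:75714249-75735729 and Spns2 at chr11:72451638-72489904. Sphk1, Sphk2 and Spns2 overlap other genes on the opposite strand (Gm29292, Dbp with Rpl18, and Mybbp1a), and since the strand setting of the counting is not given in the sources used here, their values are uncertain to that extent.

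S1P is a signalling lipid made from sphingosine, the backbone released when ceramide is broken down. Sphingosine kinases phosphorylate sphingosine, S1P phosphatases return it to sphingosine, and S1P lyase cleaves it irreversibly, so that lyase is the exit from the whole sphingolipid pathway. S1P that leaves the cell through a transporter acts on G protein-coupled receptors that govern migration, survival and cytoskeletal contraction, and in bone it is known as a signal between osteoclasts and osteoblasts.

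MOSJ-Dkk-1 is a mouse osteosarcoma line of chondroblastic type in which a lentiviral vector drives human Dkk-1, an inhibitor of canonical Wnt signalling, from the cytomegalovirus promoter. All 18 cultures carried this transgene, so none of the groups lacked the source of human Dkk-1. Cultures were untreated (NT) or received 5 µM of DkkMo, a vivo morpholino against Dkk-1, or 5 µM of scrMo, its scrambled control. The dose is that of the labels, and the sources do not give the same dose throughout. They were collected in the log phase of growth, after 6 days, or under nutritional stress, which meant 48 hr of confluence and 4 days with no change of medium. Each of the 6 groups had 3 libraries. The sources do not say whether these came from separate thaws or passages, and p-values measure only the spread between the libraries. Of the stressed NT libraries, replicates 2 and 3 carry the same number in their titles.

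Each library had 25.9 to 44.8 M reads on the listed genes. Replicates had Spearman correlations across genes of 0.992 to 0.998, and every replicate pair differed by more than sampling noise (chi-square per degree of freedom from 3.03 to 34.8), so no library was counted as a duplicate. Mouse Dkk1 had no row, and the human transgene was not analysed here. Of 11 osteoblast and chondroblast genes, 8 had a row. Spp1 and Sox9, an osteoblast matrix gene and a chondrocyte transcription factor, were high, with at least 42298 and 4554 reads per library, whereas Sp7, Ibsp and Acan had no row and Col2a1, Alpl and Bglap had at most 23, 24 and 43 reads. Of 6 endothelial and 7 leukocyte markers, only Pecam1 (239 to 424 reads) and Ptprc (1 to 24 reads) had rows. Cdh5 and Kdr, also endothelial genes, had no row. The rule by which genes were kept is not given, so a missing row is not read as absent expression.

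To show the sequence upstream of the genes on which the results turn, the 250 bases before the annotated start are printed for S1pr2 and Sphk1, which fell under stress in at least the NT and scrMo cultures, and Sgpl1, which rose. They are RefSeq sequences of GRCm38.p6, read 5′ to 3′ on the strand of the gene. Of the 8 genes, 7 had an entry, and S1pr1 had none. The letters searched for on both strands were TGANTCA, the AP-1 motif bound by Jun, TGACGTCA, the cyclic AMP response element (CRE), and CTTTGAT, the TCF/LEF motif of canonical Wnt signalling. They were found in 6.75%, 1.55% and 3.21% of all 32851 windows of this length, and a CRE does not itself hold an AP-1 match. Capitals mark a match. The S1pr2 window, chr9:20976794-20977043 on the minus strand, holds a CRE that begins 181 bases before the start.
S1pr2: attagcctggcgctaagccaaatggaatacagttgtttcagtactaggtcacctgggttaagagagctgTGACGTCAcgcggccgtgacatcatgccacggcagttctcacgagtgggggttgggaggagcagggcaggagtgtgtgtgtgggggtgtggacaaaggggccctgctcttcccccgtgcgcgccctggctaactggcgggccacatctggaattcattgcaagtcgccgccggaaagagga
Sphk1 has 5 annotated starts, and the window of the second, chr11:116531587-116531836 on the plus strand, holds an AP-1 match that begins 50 bases before it. The window of the third start covers the same match.
Sphk1: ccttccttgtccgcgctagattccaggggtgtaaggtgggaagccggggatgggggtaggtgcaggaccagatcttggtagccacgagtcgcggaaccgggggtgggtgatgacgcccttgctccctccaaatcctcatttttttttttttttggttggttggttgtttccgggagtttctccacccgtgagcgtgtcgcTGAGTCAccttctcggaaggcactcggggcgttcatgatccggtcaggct
The Sgpl1 window, chr10:61147685-61147934 on the minus strand, was 74.8% G and C and held none of these letters.
Sgpl1: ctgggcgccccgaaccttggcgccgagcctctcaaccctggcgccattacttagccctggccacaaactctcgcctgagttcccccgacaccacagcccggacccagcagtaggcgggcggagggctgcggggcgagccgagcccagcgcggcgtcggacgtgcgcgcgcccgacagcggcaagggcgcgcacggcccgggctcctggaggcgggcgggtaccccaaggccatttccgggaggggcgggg
No match was found in the windows of S1pr3, Sphk2, Sgpp1 or Spns2, or of the other 3 starts of Sphk1. A match is a description of the letters only.

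The lyase was the most highly expressed member per length, and the transporter the least. Reads per kb of exon per M reads (RPKM) averaged 55.6 ± 11.5 (SD, n = 18 libraries) for Sgpl1, 16.2 ± 2.21 for Sphk2, 8.02 ± 0.892 for Sgpp1, 6.75 ± 1.82 for S1pr2, 3.68 ± 0.905 for Sphk1 and 3.68 ± 1.30 for S1pr1. Sgpl1 lay above every other member in all 18 libraries. Spns2 was close to silent, at 0.0873 ± 0.0309 RPKM and 5 to 19 reads per library, so its values carry a large counting error. The others had at least 202 reads in every library. Among all genes, the mean deposited value of Sgpl1 ranked at the 97.7th percentile, that of Sphk2 at the 79.0th and that of S1pr1 at the 43.6th.

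**Figure D1:**
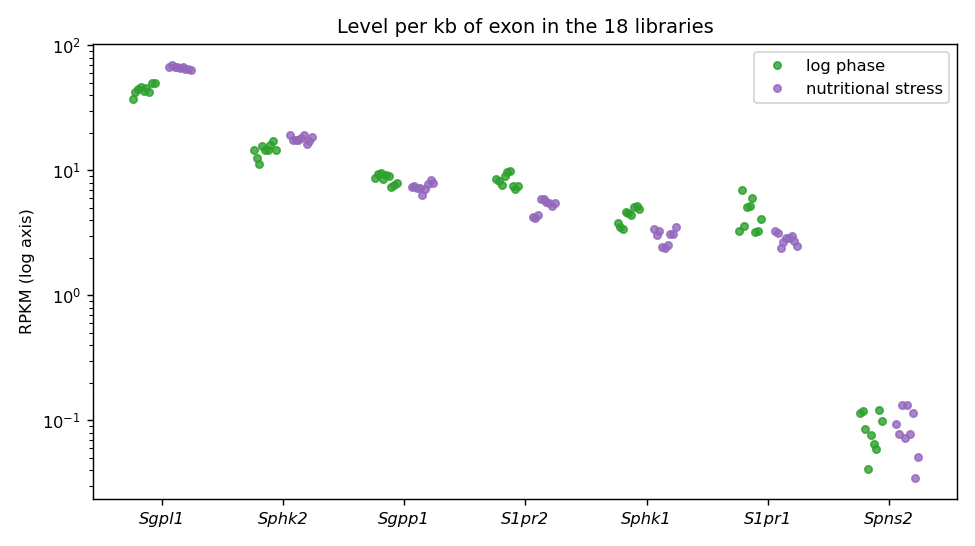
Level of the 7 genes in RPKM on a log axis, with 1 point per library, 9 log phase and 9 stressed libraries per gene. Sgpl1 is highest, at 37.6 to 70.1 RPKM, and Spns2 lowest, at 0.0345 to 0.134 RPKM.

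The receptor S1pr2 was lower and the lyase Sgpl1 higher under stress in all 3 treatments, and on the deposited scale the only changes of members beyond 1.5-fold were of these genes. In NT, 6 of the 7 genes passed the test (adjusted p below 0.05), where 65.6% of all 16562 genes tested passed, and 2 were higher and 4 lower under stress (31.5% and 34.1% of all genes). The groups did not overlap for any of the 7 genes, against 74.6% of all genes. Only Sgpl1 also exceeded 1.5-fold and was called, against 18.1% of all genes, or 8.22% in its direction. In scrMo, 3 passed (58.8%), 1 higher and 2 lower (28% and 30.8%), the groups did not overlap for 4 (62.6%) and none was called by limma on the deposited values (10.7%), with 3 at an unadjusted p below 0.05 and 1 called by limma voom on the reads. In DkkMo, 5 passed (65.6%), 2 higher and 3 lower (30.4% and 35.2%), the groups did not overlap for 6 (66.8%) and Sgpl1 was called higher and S1pr2 lower (16.5% in all, 6.24% and 10.2% by direction). The shares of members that passed lay above that of all genes in NT and DkkMo and below it in scrMo, and with 7 members nothing is read from them about S1P genes as a group. The median log2 fold change of the members was -0.18, -0.07 and -0.11 in NT, scrMo and DkkMo, against -0.01 for all genes in each. The summed normalised count of the 8 osteoblast and chondroblast genes was 111666 to 251618 in the log phase libraries and 66447 to 88822 in the stressed ones, a sum carried mostly by Spp1, while the median log2 fold change of these genes was 0.11, 0.09 and 0.04 in NT, scrMo and DkkMo. The part of these genes in the changes of the members was not tested. In bulk libraries, fewer cells of one state and less RNA per cell cannot be told apart.

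Of the receptors, S1pr2, which restrains migration, fell in all 3 treatments. In log phase its normalised read count (reads divided by the size factor of the library) was 2291, 2464 and 2494 in NT, 2010, 1793 and 1920 in scrMo, and 2238, 2110 and 1971 in DkkMo. Under stress it was 1676, 1712 and 1593 in NT, 1450, 1349 and 1427 in scrMo, and 1083, 1071 and 1126 in DkkMo. All 9 stressed libraries lay below all 9 log phase libraries, and the DkkMo libraries under stress were the lowest of all 18. Within single treatments, 62.6% to 74.6% of all genes did not overlap between conditions. The share separated over all 18 libraries was not computed. The log2 fold change of the deposited values was -0.48 in NT (SE 0.05, adjusted p = 1.58e-07 from limma), -0.37 in scrMo (SE 0.05, adjusted p = 5.56e-06) and -0.80 in DkkMo (SE 0.05, adjusted p = 1.28e-10). In order of level, log phase DkkMo and scrMo overlapped, and every other pair of neighbouring groups was separate.

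S1pr1, the receptor that couples to Gi and drives lymphocyte egress and vascular stability, was lower under stress in NT and DkkMo. Its normalised read count was 497, 503 and 583 in log phase NT and 287, 317 and 311 in stressed NT, without overlap (-0.50, SE 0.13, adjusted p = 0.00182 from limma). In scrMo it was 332, 315 and 401 in log phase and 302, 269 and 249 under stress, a difference that did not pass (-0.21, adjusted p = 0.174). In DkkMo it was 328, 691 and 353 in log phase and 320, 307 and 235 under stress (-0.38, SE 0.13, adjusted p = 0.0138). Replicate 2 of log phase DkkMo was the highest of all 18 libraries, and without it the change was -0.15 (adjusted p = 0.114). Without replicate 3 of stressed DkkMo it was -0.30 (adjusted p = 0.0743), and with only the DkkMo groups in the model the adjusted p was 0.0505. The transformation compresses differences at this level, and on the log2 scale of the normalised count plus 1 the changes were -0.79, -0.35 and -0.60 in NT, scrMo and DkkMo.

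The kinases went in opposite directions. Sphk1, the kinase that is recruited to the plasma membrane, fell under stress in NT and scrMo. Its normalised read count was 711, 691 and 672 in log phase NT and 411, 411 and 431 in stressed NT (-0.50, SE 0.05, adjusted p = 5.31e-08 from limma). In scrMo it was 815, 783 and 754 in log phase and 490, 483 and 553 under stress (-0.45, SE 0.05, adjusted p = 4.27e-07). These groups did not overlap, and on the scale of the normalised count plus 1 the changes exceeded 1.5-fold, at -0.73 and -0.63. In DkkMo it was 595, 544 and 520 in log phase and 518, 467 and 501 under stress, which differed by -0.11 and did not pass (adjusted p = 0.0690).

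Sphk2, the kinase found in nuclei and mitochondria, rose under stress in NT and DkkMo. Its normalised read count went from 1985 ± 112 (SD, n = 3) to 2715 ± 134 in NT (0.40, SE 0.08, adjusted p = 1.08e-04 from limma) and from 1731 ± 246 to 2392 ± 116 in DkkMo (0.42, SE 0.08, adjusted p = 8.00e-05), without overlap. In scrMo it was 2133 ± 177 and 2370 ± 151, and the groups overlapped (0.14, adjusted p = 0.130). Of the genes that overlap Sphk2, Rpl18, a ribosomal protein gene, differed by 0.60 in NT, -0.23 in scrMo and 0.18 in DkkMo, and Dbp, a circadian transcription factor, by -0.20, 0.49 and -0.10. Their part in the Sphk2 values was not tested.

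Sgpl1, S1P lyase, rose in all 3 treatments. Its normalised read count was 9117, 8532 and 8871 in log phase NT and 14737, 14581 and 14635 in stressed NT. In scrMo it was 8806, 9831 and 9816 in log phase and 13010, 12887 and 12759 under stress. In DkkMo it was 7623, 8474 and 8938 in log phase and 13256, 13834 and 13166 under stress. The lowest stressed library, at 12759, lay above the highest log phase library, at 9831. The share of all genes with such a separation was not computed. The ratio of group means was 1.66 in NT, 1.36 in scrMo and 1.61 in DkkMo, and the log2 fold changes were 0.71 (SE 0.06, adjusted p = 1.94e-09 from limma), 0.43 (SE 0.06, adjusted p = 2.83e-06) and 0.67 (SE 0.06, adjusted p = 5.35e-09). Among the stressed groups NT had the highest normalised read count and did not overlap scrMo or DkkMo. DkkMo against NT did not pass, however (-0.12, adjusted p = 0.0887 from limma). In RPKM the order changed, with 68.2 in DkkMo, 66.7 in NT and 64.1 in scrMo, and the NT and DkkMo libraries overlapped.

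Sgpp1, the phosphatase of the endoplasmic reticulum that turns S1P back into sphingosine, fell in DkkMo and slightly in NT. Its normalised read count was 1698 ± 57.3 in log phase DkkMo and 1332 ± 23.3 under stress (SD, n = 3, -0.30, SE 0.05, adjusted p = 1.11e-05 from limma), without overlap. In NT it was 1604 ± 46.0 and 1389 ± 78.2 (-0.18, SE 0.05, adjusted p = 0.00201), and in scrMo 1411 ± 28.9 and 1484 ± 49.1 (0.06, adjusted p = 0.257). Spns2, the exporter of S1P, differed by 0.11, -0.07 and -0.02 in NT, scrMo and DkkMo and passed in none of them (adjusted p from 0.111 to 0.818). The transformation compresses these low counts most, and on the scale of the normalised count plus 1 the differences were 0.72, -0.53 and -0.11, none of which passed (adjusted p from 0.111 to 0.825). In NT its normalised read count was 7.92 ± 2.37 in log phase and 13.9 ± 5.08 under stress (SD, n = 3), and these groups did not overlap.

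**Figure D2:**
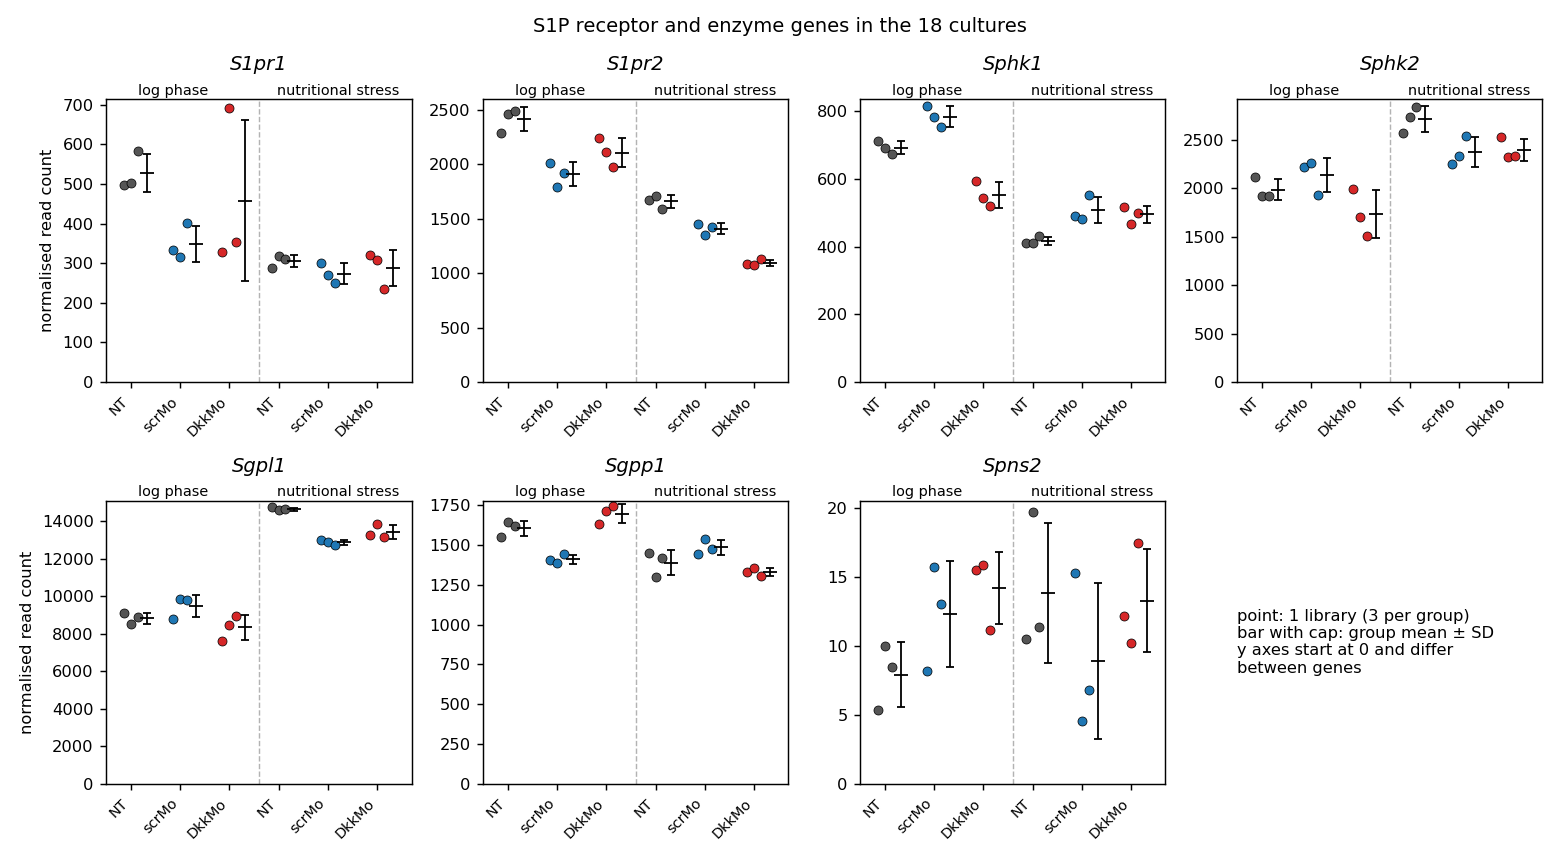
Normalised read counts of the 7 genes in each of the 18 libraries, with group means ± SD (n = 3) and y axes that start at 0. Stressed libraries lie below log phase libraries for S1pr2 and above them for Sgpl1 in all 3 treatments, and log phase DkkMo replicate 2 stands at 691 for S1pr1.

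**Figure D3:**
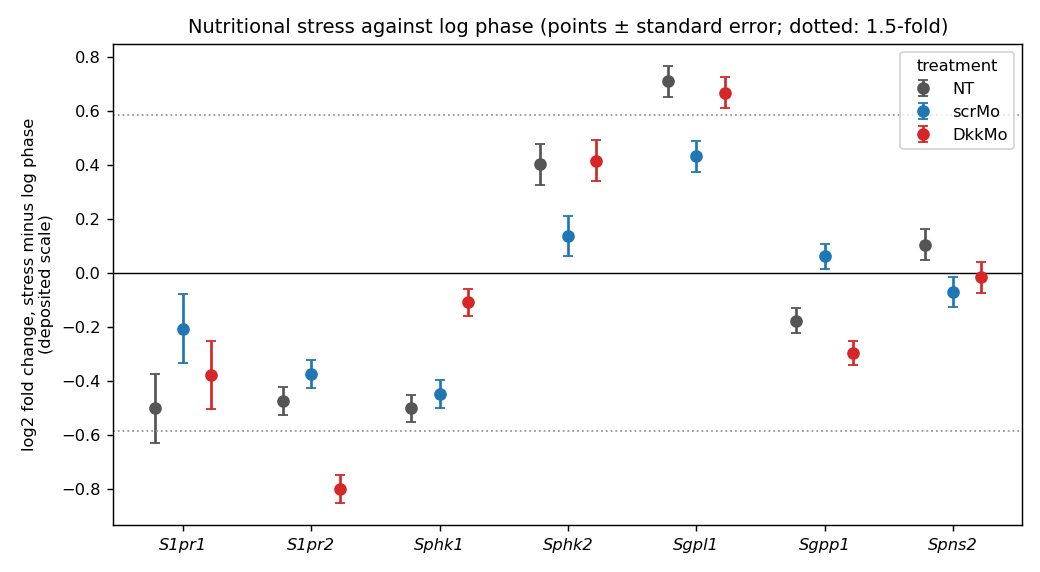
Log2 fold change of stress minus log phase ± standard error for the 7 genes in NT, scrMo and DkkMo, with dotted lines at 1.5-fold. Only Sgpl1 in NT (0.71) and DkkMo (0.67) and S1pr2 in DkkMo (-0.80) lie beyond the lines.

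These directions depend in part on how libraries are scaled. The median deposited value of the genes tested was 9.68 to 9.77 in log phase and 9.58 to 9.63 under stress, and centring each library on its median raises every stress against log phase change by 0.16 in NT, 0.07 in scrMo and 0.16 in DkkMo. The falls of S1pr2 in all 3 treatments and of Sphk1 in NT and scrMo, the rises of Sgpl1 and Sphk2 and the fall of S1pr1 in NT kept their direction and passed. After centring, Sgpp1 in NT was at -0.02 (adjusted p = 0.729), S1pr1 in DkkMo at -0.21 (adjusted p = 0.125) and Sphk1 in DkkMo at 0.06 (adjusted p = 0.325), a turn of sign. The fall of Sgpp1 in DkkMo shrank to -0.13 but passed (adjusted p = 0.0147). Centring also took Sphk2 and Sgpp1 in scrMo past the test, at 0.20 and 0.13, and Spns2 in NT and DkkMo, at 0.26 and 0.15. Scaling to reads on listed genes, as in RPKM, moved NT the other way. Sgpl1 in NT was at 43.6 to 46.2 RPKM in log phase and 65.6 to 67.8 under stress. The ratio of its group means in RPKM was under 1.5, against 1.66 for normalised reads. In NT and scrMo, Sgpl1 and Sphk2 rose less in RPKM than in normalised reads, and in DkkMo slightly more. Changes in RPKM were not tested.

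Ratios between members were also taken within a library, where the scaling of libraries drops out. The ratio of Sgpl1 to Sphk1, in RPKM, was 8.39 to 13.4 in the 9 log phase libraries and 17.9 to 27.8 in the 9 stressed libraries. The ratio of Sphk2 to Sphk1 was 2.94 to 3.84 in log phase and 5.26 to 7.64 under stress, and that of Sgpl1 to Sgpp1 4.29 to 6.53 and 7.71 to 10.3. None of these 3 ranges overlapped between conditions. Among the stressed cultures, NT stood highest for Sgpl1 to Sphk1, at 26.4 to 27.8, against 17.9 to 20.7 in scrMo and 19.9 to 23.0 in DkkMo. The ratio of S1pr2 to S1pr1 was 1.17 to 2.61 in log phase and 1.29 to 2.23 under stress, and these ranges overlapped. The ratios were chosen after the values were seen and were not tested. They restate the changes of the members given above. The share of other gene pairs that separate in this way was not computed.

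**Figure D4:**
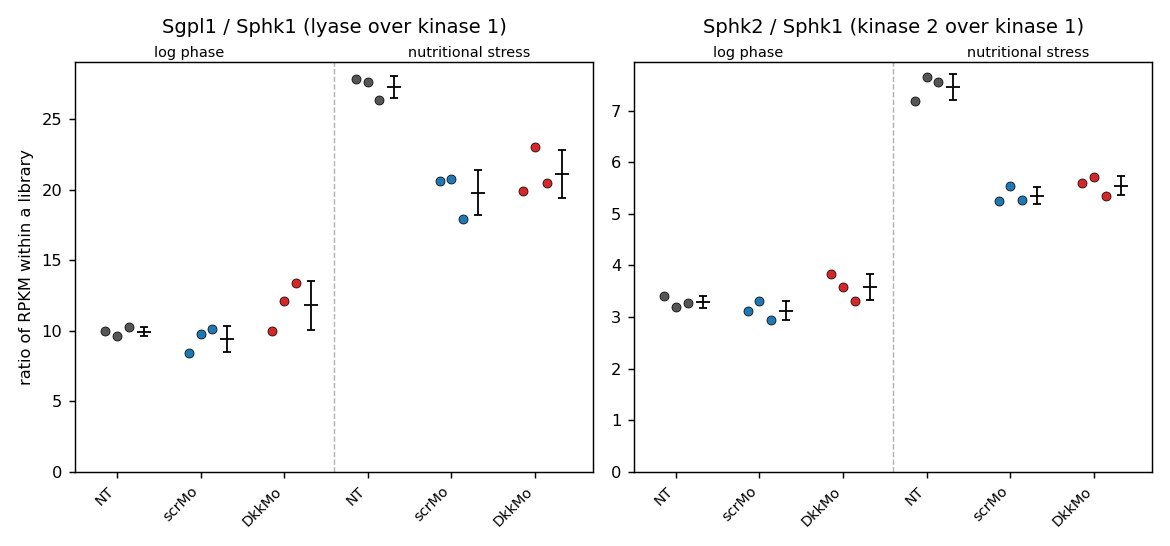
Ratio of RPKM within each library for Sgpl1 over Sphk1 and for Sphk2 over Sphk1, with group means ± SD (n = 3). All stressed libraries lie above all log phase libraries in both panels, and stressed NT lies highest.

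DkkMo against scrMo asks what the morpholino against Dkk-1 adds to morpholino treatment as such. In log phase, 4 of 7 genes passed, against 23.5% of all genes, 1 higher and 3 lower (14.3% and 9.2% of all genes). Under stress 2 passed, against 20.9%, both lower (10.9%). No member was called in either condition by limma (1.97% and 1% of all genes) or by limma voom on the reads, where 5 of 7 members in log phase and 2 of 7 under stress had an unadjusted p below 0.05. The groups did not overlap for 2 members in log phase (26.9% of all genes) and 3 under stress (44.9%). The median log2 fold change of the members was 0.03 and 0.01, against 0.00 for all genes in both.

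In log phase, both kinases and the lyase were lower in DkkMo than in scrMo. Sphk1 fell by 0.37 on the log2 scale (SE 0.05, adjusted p = 4.99e-05 from limma), from 784 ± 30.9 to 553 ± 38.7 normalised reads (SD, n = 3), and its groups did not overlap. Sphk2 fell by 0.27 (SE 0.08, adjusted p = 0.0148) and Sgpl1 fell by 0.18 (SE 0.06, adjusted p = 0.0283), with overlapping groups. The Sphk2 difference did not pass without replicate 2 or 3 of DkkMo or replicate 2 of scrMo (-0.26, -0.18 and -0.23, adjusted p from 0.0506 to 0.0860), and the overlapping Rpl18 was at -0.31 in the same comparison. The Sgpl1 difference did not pass without replicate 1 or 2 of DkkMo or replicate 2 or 3 of scrMo (-0.12, -0.19, -0.15 and -0.15, adjusted p from 0.0520 to 0.116). Sgpp1 rose by 0.23 (SE 0.05, adjusted p = 0.00117), from 1411 ± 28.9 to 1698 ± 57.3, without overlap. With only the DkkMo and scrMo groups of log phase in the model, Sphk2, Sgpl1 and Sgpp1 did not pass (adjusted p = 0.158, 0.281 and 0.0783). The receptors did not pass, at 0.13 for S1pr2 (adjusted p = 0.0928) and 0.21 for S1pr1 (adjusted p = 0.257, and -0.02 without replicate 2 of DkkMo). The summed count of the osteoblast and chondroblast genes was 171104 to 189777 in DkkMo and 111666 to 147575 in scrMo, and its part in these differences was not tested.

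Under stress, S1pr2 fell by 0.30 (SE 0.05, adjusted p = 3.94e-04 from limma), from 1409 ± 52.9 in scrMo to 1093 ± 28.8 in DkkMo, without overlap. Sgpp1 fell by 0.13 (SE 0.05, adjusted p = 0.0456), without overlap, but did not pass when any 1 of the 6 libraries was left out (-0.15 to -0.11, adjusted p from 0.0521 to 0.176) or after centring (-0.10, adjusted p = 0.143). Sphk1 was at -0.03, Sphk2 at 0.01 and Sgpl1 at 0.06, and none passed. The paper, whose listed genes exceeded 1.5-fold in its own analysis, reports S1pr2 as downregulated by DkkMo in culture. Here the ratio of S1pr2 group means, DkkMo over scrMo, was 0.776 under stress. In log phase its difference was 0.13, in the other direction, and did not pass.

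The difference between DkkMo and scrMo itself changed with the culture condition for 4 of the 7 genes (22.2% of all genes), none of them by over 1.5-fold (3.7%), and 5 had an unadjusted p below 0.05. The interaction, the difference under stress minus that in log phase, was -0.43 for S1pr2 (SE 0.07, adjusted p = 4.77e-04 from limma), -0.36 for Sgpp1 (SE 0.06, adjusted p = 6.01e-04), 0.34 for Sphk1 (SE 0.07, adjusted p = 0.00225) and 0.24 for Sgpl1 (SE 0.08, adjusted p = 0.0421). For Sgpp1, DkkMo was above scrMo in log phase and below it under stress, without overlap in either condition. The first 3 passed with any 1 library left out. The Sgpl1 interaction passed in 2 of 12 such fits (0.18 to 0.29, adjusted p up to 0.0998), and with only these 4 groups in the model its adjusted p was 0.102. That of Sphk2, at 0.28, did not pass (adjusted p = 0.0683), but it passed after centring (0.38, adjusted p = 0.0119).

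The scrambled control also differed from NT in these genes. Against NT in log phase, scrMo had lower S1pr2 (-0.30, SE 0.05, adjusted p = 2.94e-04 from limma), S1pr1 (-0.39, SE 0.13, adjusted p = 0.0301) and Sgpp1 (-0.16, SE 0.05, adjusted p = 0.0150), 3 of 7 genes against 26.4% of all genes, or 14.6% in this direction. The groups did not overlap for these 3 and for Sphk1, which was at 0.13 and did not pass, 4 genes in all against 37.8% of all genes. Sphk1 did pass after centring (0.19, adjusted p = 0.00926) and by limma voom (adjusted p = 0.0483). No member was called by limma (2.45%), with 4 at an unadjusted p below 0.05 and 1, S1pr1, called by limma voom. On the scale of the normalised count plus 1, the S1pr1 change was -0.60. It did not pass without replicate 2 or 3 of NT or replicate 1 or 2 of scrMo (-0.41, -0.34, -0.37 and -0.34, adjusted p from 0.0580 to 0.117). The Sgpp1 change did not pass without replicate 2 or 3 of NT or replicate 2 of scrMo (-0.14, -0.15 and -0.15, adjusted p from 0.0531 to 0.0663) or after centring (-0.11, adjusted p = 0.0894), and with only these groups in the model its adjusted p was 0.0813.

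Under stress, scrMo had lower S1pr2 (-0.20, SE 0.05, adjusted p = 0.00394 from limma) and Sgpl1 (-0.18, SE 0.06, adjusted p = 0.0140) and higher Sphk1 (0.19, SE 0.05, adjusted p = 0.00567) than NT, 3 of 7 genes against 46.8% of all genes, with 22.1% higher and 24.7% lower. The groups did not overlap for 4 genes, these and Sphk2, against 63.5% of all genes, and none was called by limma (4.43%) or limma voom, with 4 at an unadjusted p below 0.05. Sphk2 was at -0.18 and did not pass (adjusted p = 0.0627), but it passed after centring (-0.22, adjusted p = 0.0216). On the scale of the normalised count plus 1 the Sphk1 difference was 0.28. The interaction of scrMo against NT with stress passed for Sgpl1 (-0.28, SE 0.08, adjusted p = 0.00861), Sgpp1 (0.24, SE 0.06, adjusted p = 0.00514) and Sphk2 (-0.27, SE 0.11, adjusted p = 0.0487), against 46% of all genes, and none was called by limma (10.9%) or limma voom, with 4 at an unadjusted p below 0.05. After centring, the Sgpp1 interaction was 0.15 (adjusted p = 0.0719), and that of Spns2, which had not passed, was -0.27 (adjusted p = 0.0103). The Sphk2 interaction passed in 4 of 12 fits with 1 library left out (-0.33 to -0.23, adjusted p up to 0.112), and its adjusted p was 0.0531 on the scale of the normalised count plus 1 and 0.0758 by limma voom, and it did not pass without the variance trend.

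DkkMo against NT shares its samples with the comparisons above, and its values are given beside them, not as separate evidence. In log phase, S1pr2 (-0.18, SE 0.05, adjusted p = 0.0376 from limma) and Sphk1 (-0.23, SE 0.05, adjusted p = 0.00602) were lower, 2 of 7 genes against 9.81% of all genes, or 4.46% in this direction. The groups did not overlap for 3 genes (24.1%), these and Spns2, and none was called by limma (0.827%) or limma voom, with 3 at an unadjusted p below 0.05. The S1pr2 difference did not pass without replicate 2 or 3 of NT or of DkkMo (-0.16, -0.16, -0.18 and -0.14, adjusted p from 0.0682 to 0.161), and with only these groups in the model neither difference passed (adjusted p = 0.179 for S1pr2 and 0.0613 for Sphk1). Under stress, S1pr2 was lower (-0.50, SE 0.05, adjusted p = 7.08e-07) and Sphk1 higher (0.16, SE 0.05, adjusted p = 0.0165), against 41.7% of all genes that passed, with 22.7% lower and 19% higher, and none was called by limma (2.66%) or limma voom, with 4 at an unadjusted p below 0.05. The groups did not overlap for 4 genes (59.4%), these with Sgpl1 and Sphk2. The Sphk1 rise did not pass without replicate 1 or 2 of NT or replicate 1 of DkkMo (0.15, 0.15 and 0.14, adjusted p from 0.0508 to 0.0683), and on the scale of the normalised count plus 1 it was 0.24. On that scale S1pr2 was at -0.60 (adjusted p = 4.63e-07) and exceeded 1.5-fold. The interaction was -0.33 for S1pr2 (SE 0.07, adjusted p = 0.00315) and 0.39 for Sphk1 (SE 0.07, adjusted p = 6.15e-04), 2 of 7 genes against 29.1% of all genes, and none was called by limma (3.92%), with 2 at an unadjusted p below 0.05 and 1 called by limma voom.

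**Figure D5:**
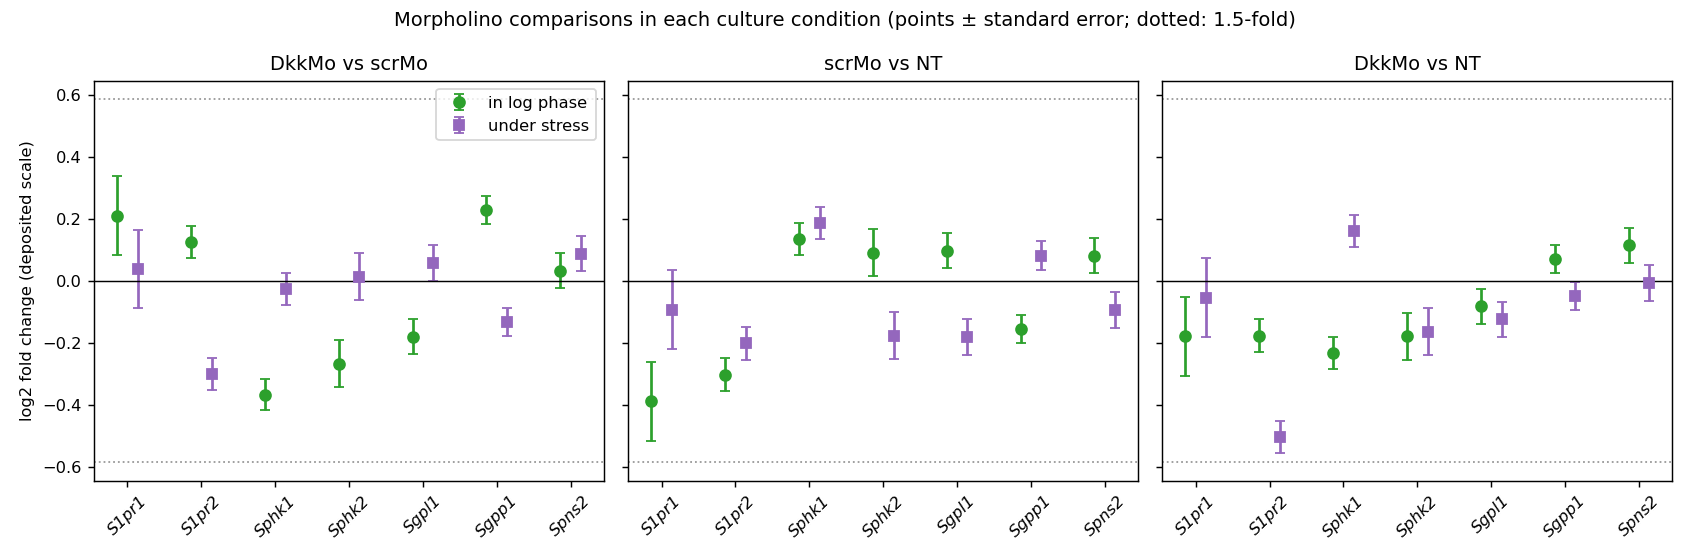
Log2 fold changes ± standard error of the 7 genes in DkkMo against scrMo, scrMo against NT and DkkMo against NT, in log phase (circles) and under stress (squares), with dotted lines at 1.5-fold. All points lie within the lines, and S1pr2 under stress lies furthest from 0, at -0.50 for DkkMo against NT.

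The genes around S1P metabolism were followed in a list of 46 other S1P and sphingolipid genes, of which 38 had a row. Under stress in NT, 15 were higher and 14 lower by the adjusted p, where 31.5% and 34.1% of all genes were, with a median of 0.02, and 3 and 5 were called, 8 of 38 against 18.1% of all genes. Among the called rises were those of Ugcg, glucosylceramide synthase (1.00, adjusted p = 1.15e-11 from limma), and Sgms2, a sphingomyelin synthase (0.63, adjusted p = 6.01e-06). The called falls were those of Plpp1, a lipid phosphatase that acts on S1P at the cell surface (-0.87), of the ceramidases Asah2 (-0.79) and Asah1 (-0.65), which release sphingosine, of the ceramide synthase Cers5 (-0.62) and of Sptlc2 (-0.60), a subunit of the enzyme that opens sphingolipid synthesis. In scrMo, where 10.7% of all genes were called, 4 were called lower (Abcc1, Cers5, Plpp1 and Plpp3, -0.86, -0.80, -0.77 and -0.60), and in DkkMo, with 16.5%, Sgms2 was among those called higher (0.59) and 5 were called lower (Plpp1, -1.02, Abcc1, -0.87, Cers5, -0.80, Sptlc2, -0.76, and Sgms1, -0.60). Abcc1 encodes a transporter that can export S1P. DkkMo against scrMo had 0 called genes of this list by limma in both conditions (1.97% and 1% of all genes), with 10 of 38 past the adjusted p in log phase and 9 of 38 under stress (23.5% and 20.9% of all genes), 14 and 18 at an unadjusted p below 0.05, and medians of 0.00 and -0.00 beside 0.00 for all genes.

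Of 14 G proteins and regulators of S1P receptors, 13 had a row. Under stress in NT, 3 were called higher, Arrb2, an arrestin (0.84), Gna13 (0.82), a G protein alpha subunit to which S1pr2 couples, and the receptor kinase Grk2 (0.72), and 1 lower, the arrestin Arrb1 (-0.83), 4 of 13 against 18.1% of all genes. In scrMo, Klf2 was called higher (0.65) and Rac1 lower (-0.76), and in DkkMo Rac1 (-0.94), Arrb1 (-0.76) and the Gi subunit Gnai2 (-0.70) were called lower. Klf2, a transcription factor known to activate S1pr1, was lower in DkkMo than in scrMo under stress (-0.65, SE 0.08, adjusted p = 1.28e-05 from limma) and higher in scrMo than in NT (0.83, SE 0.08, adjusted p = 1.67e-07). In the same comparisons S1pr1 was at 0.04 and -0.09 and did not pass. The part of Klf2 in the S1pr1 values was not tested. Arrb1 was higher in DkkMo than in scrMo in log phase (0.72, SE 0.13, adjusted p = 5.75e-04).

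Of 7 genes for receptors of lysophosphatidic acid (LPA), a related lipid, and for autotaxin, which makes it, 4 had a row. Enpp2, autotaxin, was higher in DkkMo than in scrMo in log phase (0.78, SE 0.09, adjusted p = 8.64e-06 from limma) and lower under stress in NT (-1.23) and DkkMo (-0.94). Lpar1 was lower under stress in NT (-0.92) and in scrMo against NT in log phase (-0.63). Under stress, DkkMo exceeded NT in Enpp2 (0.77) and Lpar4 (0.60), and in the ceramidase Asah2 (0.62). Of the 8 osteoblast and chondroblast genes, 3 were called lower and 2 higher under stress in NT, where 18.1% of all genes were called: Col1a1 (-3.20), Sparc (-1.53) and Spp1 (-1.60) lower and Runx2 (1.19) and Sox9 (0.72) higher.

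Across the 18 libraries, Pearson's r of the deposited values was 0.81 between Sphk2 and Sgpl1, 0.72 between S1pr1 and S1pr2, -0.80 between S1pr2 and Sgpl1 and -0.76 between Sphk1 and Sgpl1. The points share their libraries and fall into 2 culture conditions, so these values are a description. Among the genes whose values were most like those of the called members, over the same 18 libraries, were Nudt9 (r = 0.97) and Arhgef25 (0.97) for S1pr2, and Arih1 (0.99), Clcn5 (0.99) and Ktn1 (0.99) for Sgpl1. Aldh1a1, which the study followed as a gene regulated by Dkk-1, was lower in DkkMo than in scrMo, at -0.36 in log phase and -0.37 under stress (adjusted p = 1.53e-04 and 1.30e-04 from limma). Neither change exceeded 1.5-fold on the deposited scale, so Aldh1a1 was not called. No other scale was run for Aldh1a1. The paper, whose listed genes exceeded 1.5-fold in its own analysis, reports Aldh1a1 as downregulated in both conditions. It also reports lower Aldh1a1 by quantitative RT-PCR.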

How the data were processed

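RNA sequencing of 18 cultures of MOSJ-Dkk-1 cells was used, and 16 tumours of the series were not. Per the submitters' processing notes and the paper's methods, the authors aligned reads to the mouse genome GRCm38 with HISAT2 2.1.0, used SAMtools 1.9 and counted reads per gene with featureCounts (Subread 2.0.0). Library sizes were equalised by DESeq2 size factors, and the authors deposited the output of its variance-stabilising transformation, on a log2 scale. The strand setting, the treatment of reads mapping to several genes and the rule by which genes were kept are not given in the sources used here.

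The transformation was reversed from the table itself. The lowest value, 7.20, stands for 0 reads, and all recovered values were whole within 0.05 in every library. RPKM used the union of exons in the GENCODE annotation of GRCm38 and reads on listed genes. The 14 rows whose values spanned more than 6 within a group were set aside, which left 16562 genes, and none failed the filter of reads in at least 3 libraries. Differences between group means of deposited values were tested in limma (version 3.58.1, R 4.3.3). A single model held all 18 libraries, the prior variance followed mean expression, and p-values were adjusted over all genes by Benjamini-Hochberg. A gene passed at an adjusted p below 0.05 and was called when the change also exceeded 1.5-fold. An exact permutation test of 3 against 3 cannot give a two-sided p below 0.1. The limma step was also run on simulated data, only for DkkMo against scrMo in log phase.

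The members and gene lists were chosen with earlier results of these data known. Genes of the lists are named where they were called. Genes most like a called member are those with the 3 highest correlations, predicted genes left out. Some genes that met these rules are not reported here. The replicate numbers were not used as pairs, since in each comparison examined at least 1 same-numbered pair had a correlation of deviations under 0.1. For DkkMo against scrMo in log phase the mean correlation was 0.38 for same-numbered pairs and -0.18 for the others. The second value follows largely from the first, since deviations from the mean of 3 libraries sum to 0. Whether those libraries were paired is therefore not settled. Promoter sequences are from RefSeq. Tables and figures were made with Python 3.11.15, NumPy 2.4.6, pandas and Matplotlib.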

Additional observations from a re-analysis of the deposited data

Results flagged for a closer look

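The effect of a morpholino in log phase differed from its effect under stress, by the interaction term of the model (limma, Benjamini-Hochberg adjusted p), in 9 pairs of a gene and a comparison. For DkkMo against scrMo the interaction was -0.43 for S1pr2 (adjusted p = 4.77e-04), -0.36 for Sgpp1 (adjusted p = 6.01e-04), 0.34 for Sphk1 (adjusted p = 0.00225) and 0.24 for Sgpl1 (adjusted p = 0.0421). For scrMo against NT it was -0.28 for Sgpl1 (adjusted p = 0.00861), 0.24 for Sgpp1 (adjusted p = 0.00514) and -0.27 for Sphk2 (adjusted p = 0.0487). For DkkMo against NT it was -0.33 for S1pr2 (adjusted p = 0.00315) and 0.39 for Sphk1 (adjusted p = 6.15e-04). Over all genes, 22.2% passed for DkkMo against scrMo, 46% for scrMo against NT and 29.1% for DkkMo against NT. The Sgpl1 interaction of DkkMo against scrMo passed in 2 of 12 fits with 1 library left out. That of Sphk2 in scrMo against NT passed in 4 of 12. After centring, that of Sgpp1 in scrMo against NT did not pass. The 3 comparisons share their libraries. Groups of 3 libraries were not tested for outlying libraries.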

How the results depend on the processing

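Of the 39 member changes that passed the adjusted p, 620 recomputed values gave 0 turns of sign, and 67 no longer passed, 47 of them with 1 library left out, 8 when the model held just the groups of a comparison, 5 after median centring of libraries, 4 with the replicate number as a block and 1 each on the normalised count plus 1, by limma voom and without the variance trend. The main model does not use the replicate numbers as pairs. With the replicate block, Sgpl1 in DkkMo against scrMo in log phase (-0.18, adjusted p = 0.105), S1pr1 (-0.39, adjusted p = 0.0816) and Sgpp1 (-0.16, adjusted p = 0.0605) in scrMo against NT in log phase, and S1pr2 in DkkMo against NT in log phase (-0.18, adjusted p = 0.166) no longer passed, and same-numbered correlations ranged from -0.05 to 0.62 for DkkMo against scrMo in log phase. No blocked fit was made with stressed NT, where 2 libraries share a number.

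The number of members called was 0 in 10 comparisons, including the 3 interactions, and was unchanged within 1.5 times with any 1 library left out. On the log2 of the normalised count plus 1, it was 1 for scrMo against NT in log phase, 1 for DkkMo against NT under stress, 3 for stress against log phase in NT, 1 for the same in scrMo and 3 for the same in DkkMo, where it was otherwise 2. With limma voom on the recovered reads, it was 1, 3 and 1 for scrMo against NT in log phase and for stress against log phase in NT and scrMo, and 1 for the interaction of DkkMo against NT. With no fold threshold, it was 4 and 2 for DkkMo against scrMo in log phase and under stress, 3 and 3 for scrMo against NT, 2 and 2 for DkkMo against NT, 6, 3 and 5 for stress against log phase in NT, scrMo and DkkMo, and 4, 3 and 2 for the interactions of DkkMo against scrMo, scrMo against NT and DkkMo against NT. Of all genes, 23.5% and 20.9%, 26.4% and 46.8%, and 9.81% and 41.7% passed in the morpholino comparisons, in that order. For stress against log phase the shares were 65.6%, 58.8% and 65.6%, and for the interactions 22.2%, 46% and 29.1%. With the longest transcript as the length, Sgpl1 was at 78.3, Sphk2 at 19.0 and Sgpp1 at 13.6 RPKM, and the order of the genes was the same. Genes with few reads, such as Spns2, are limited by counting error.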
